A study of Mus musculus with 6 samples.

Results

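The organic ion and drug transporters were studied here as the genes of 4 families, Slc22a, Slco, Abcc, and Slc47a, that had at least 50 unique molecular identifiers (UMIs, counts of single RNA molecules) in total over the 6 kidneys. Of 51 such symbols among the 28208 genes listed for every kidney, 39 passed this limit and are called the members. They were 21 of 25 Slc22a, 9 of 14 Slco, 8 of 10 Abcc, and 1 of 2 Slc47a symbols. The limit uses the counts themselves, so the abundance of the members is no finding. Slco1a4 with 63 UMIs and Slc22a3 with 80 lay just inside it, and Slc22a27 with 44 and Slc47a2 with 14 just outside. Of the other symbols left out, Abcc8 had 10 UMIs, Slc22a20, Slco1b2, and Slco1c1 had 3 each, Slc22a14 and Slc22a16 had 1 each, and Abcc12, Slco1a5, Slco6c1, and Slco6d1 were listed at 0.

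Dissociated cells of 6 mouse kidneys were profiled by droplet scRNA-seq, with 2 naive, 2 rejecting, and 2 tolerized kidneys and 1 library per kidney. Naive kidneys were untransplanted kidneys of C57BL/6 (B6) mice aged 10-12 weeks. Rejecting kidneys were BALB/c kidneys placed in B6 recipients whose own kidneys had both been removed, taken at day 15, with a stated age of 6-7 weeks. Tolerized kidneys were the same kind of graft, also taken at day 15, in recipients that had received BALB/c splenocytes treated with ethylenecarbodiimide before and after transplantation. All 6 were labelled male. Strain, age, the listed genes, and the set of cell barcodes all differed between naive and transplanted kidneys, so a difference between them cannot be told apart from these. A naive and a transplanted library shared 0 to 4 barcodes, compared with 111 for the naive pair and 18 to 35 among the transplanted. The comparison of tolerized with rejecting kidneys has none of these differences.

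The proximal tubule clears drugs, toxins, and metabolic waste in 2 steps, because uptake carriers at the basolateral membrane load the cell from the blood and other carriers and pumps at the luminal membrane pass the load into the urine. Slc22a carriers move organic anions, organic cations, urate, or carnitine, Slco carriers move bile acids, hormones, and prostaglandins, Slc47a carriers exchange organic cations for protons, and Abcc pumps use ATP. Along the tubule the S1 and S2 segments come first and the straight S3 segment follows.

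Several members lie side by side in the genome. On chromosome 19 of GRCm38 (mm10), Slc22a28 (8062209 to 8131982), Slc22a29 (8160165 to 8218900), and Slc22a30 (8335371 to 8405111) lie on the minus strand, ahead of the plus-strand pair Slc22a8 (8591254 to 8611835) and Slc22a6 (8618039 to 8628299). On chromosome 6, Slco1a4, Slco1a1 (141907282 to 141946962), and Slco1a6 (142085761 to 142208521) are neighbors on the minus strand. Close relatives share sequence at the 3' end, where these libraries read. Of the 50-base words in the last 500 bases of its transcripts, Slc22a28 shared 47.7% with other genes, mostly Slc22a30, and Slc22a29 shared 20%, mostly Slc22a27. Slc22a5 shared 34.5% and Slc22a21 32.6%, mostly with each other, Slc22a13 shared 20.8% with a pseudogene, and Slco1a6 shared 13.1% with Gm6614. Counts of these members are therefore uncertain between copies, whereas Slc22a6, Slc22a7, Slc22a8, Slc22a12, Slc22a2, Slc47a1, Slc22a22, Slco1a1, and Abcc2 shared 0%.

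Promoter windows of 4 of the chromosome 19 genes are shown because this row of neighbors held a member that rose, Slc22a29, and a member that fell, Slc22a30, in the grafts. Each is the 250 bases before the RefSeq start in GRCm38.p6, printed 5' to 3' on the strand of the gene (the RefSeq start of Slc22a8 lies within its GENCODE span above), at chr19:8617746-8617995 (plus) for Slc22a6, chr19:8592932-8593181 (plus) for Slc22a8, chr19:8218901-8219150 (minus) for Slc22a29, and chr19:8405106-8405355 (minus) for Slc22a30. Capitals mark the letters GTTAAT, which were searched in all windows, or the reverse ATTAAC.
Slc22a6: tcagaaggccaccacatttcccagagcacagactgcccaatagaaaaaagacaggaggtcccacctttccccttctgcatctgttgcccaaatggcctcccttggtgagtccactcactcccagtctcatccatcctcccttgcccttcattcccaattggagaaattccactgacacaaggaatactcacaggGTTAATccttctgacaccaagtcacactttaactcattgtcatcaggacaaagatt
Slc22a8: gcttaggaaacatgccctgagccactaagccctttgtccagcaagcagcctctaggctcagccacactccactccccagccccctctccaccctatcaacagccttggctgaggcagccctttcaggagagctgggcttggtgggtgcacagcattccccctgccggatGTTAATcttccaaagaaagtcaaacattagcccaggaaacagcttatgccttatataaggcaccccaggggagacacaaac
Slc22a29: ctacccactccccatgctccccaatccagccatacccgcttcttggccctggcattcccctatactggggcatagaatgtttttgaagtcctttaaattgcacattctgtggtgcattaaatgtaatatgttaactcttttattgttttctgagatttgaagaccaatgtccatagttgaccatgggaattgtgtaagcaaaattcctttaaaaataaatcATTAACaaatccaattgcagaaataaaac
Slc22a30: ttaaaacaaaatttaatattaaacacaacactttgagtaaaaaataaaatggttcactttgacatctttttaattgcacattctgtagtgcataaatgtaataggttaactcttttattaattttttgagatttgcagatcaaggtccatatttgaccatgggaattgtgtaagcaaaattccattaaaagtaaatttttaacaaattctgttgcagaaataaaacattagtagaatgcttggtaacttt
These letters were found on either strand in 3 of the 30 members with a window, Slc22a6, Slc22a8, and Slc22a29, and in 6.43% of all 32851 windows. They begin 56 bases before the start of Slc22a6, 81 before that of Slc22a8, and 29 before that of Slc22a29. A second motif, the letters CAAAGTTCA of a direct repeat bound by nuclear receptors, was found on either strand in Slc22a3 and Slco1a6 and in 0.335% of all windows. The windows of Slc22a29 and Slc22a30 were 64.7% identical when aligned, compared with 50.6% for Slc22a6 and Slc22a8. A match describes the letters and not a site of binding.

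Cells were grouped into classes by marker genes, without use of any member, and each class is named with the ending "-like". Proximal tubule (PT)-like cells numbered 4816 and 3760 in the naive, 2837 and 1144 in the rejecting, and 3550 and 2413 in the tolerized kidneys, and their summed UMIs ran from 7360100 to 36414120 per kidney. They fell into S1/S2-like clusters, S3-like clusters with at least 6 of 8 S3 markers, and intermediate clusters with 3 or 4 S3 markers and at most 1 of the S1/S2 markers. Of the 12 PT-like clusters, 5 consisted almost wholly of cells of naive kidneys and the other 7 almost wholly of cells of transplanted kidneys. Intermediate clusters held 60.9% and 60.3% of PT-like cells of the naive kidneys, 7.54% and 18.4% of those of rejecting kidneys, and 26.6% and 9.74% of those of tolerized kidneys, so naive and transplanted kidneys did not overlap in this share. Values below are therefore also given within S1/S2-like and within intermediate clusters. These sets are made of different clusters in naive and transplanted kidneys, so a change within a set also compares different clusters. Naive S1/S2-like clusters had 7 or 8 S1/S2 markers, and those of transplanted kidneys had 4 to 8. Xist had at most 0.201 CPM (UMIs of a gene per 1000000 UMIs of the summed cells) in PT-like cells of any kidney, and the 4 Y-linked genes Ddx3y, Eif2s3y, Kdm5d, and Uty summed to 81.7 to 110 CPM, so no kidney went against its label.

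The members were divided by where they were highest. Of the 39, 23 had their highest mean in PT-like cells, 21 of them in each of the 6 kidneys, when PT-like, thick ascending limb (TAL)-like, distal convoluted tubule (DCT)-like, collecting duct (CD)-like, endothelium-like, and leukocyte-like cells were compared by raw CPM. Another 5 were highest in TAL-like, 4 in CD-like, 4 in leukocyte-like, 2 in DCT-like, and 1 in endothelium-like cells. The class was the same in all 6 kidneys for 0, 2, 0, 1, and 1 of them, in this order. PT-like cells were taken as 1 class here. Slco4c1, Abcc3, and Slc22a4 had a higher mean in S3-like cells (51.0, 22.5, and 30.7 CPM) than in the class they were counted under (5.70, 9.95, and 27.5 CPM). Stroma-like cells were left out of this order because 1 kidney held only 1 of them. A cluster of 1041 cells with markers of both CD and DCT was also left out, as were cycling and unnamed clusters.

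**Figure D1:**
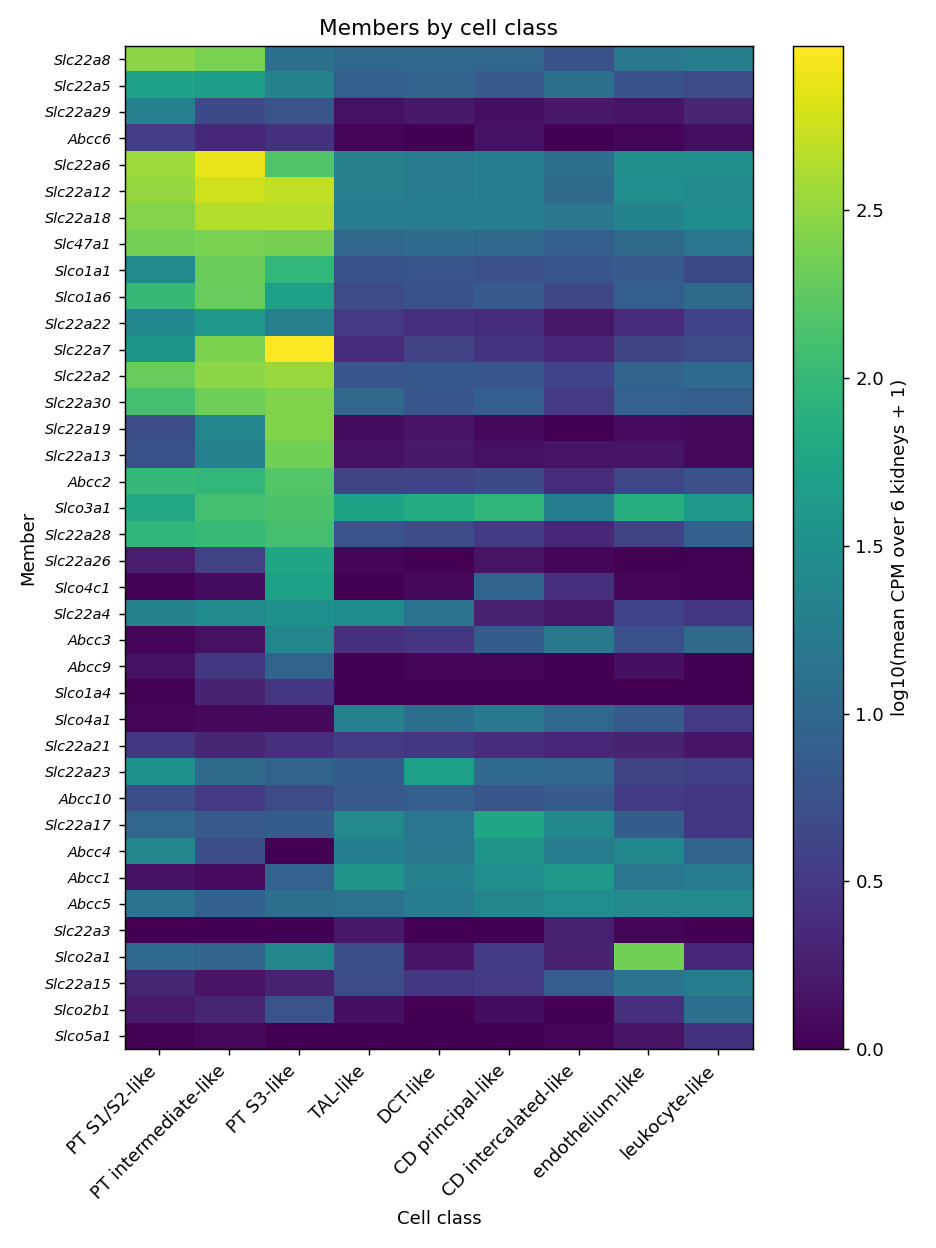
Mean level of 38 members in 9 classes of cells, with 1 row per member, ordered by the class in which the member is highest, and color for log10 of the mean CPM over the 6 kidneys plus 1. The upper rows show members of the proximal tubule, among them Slc22a7 at 977 CPM in S3-like cells, and Slco2a1 stands out in endothelium-like cells at 222 CPM.

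The organic anion transporters were not spread evenly along the proximal tubule. The following levels are raw CPM and a description, with no test, because the clusters were made from the same cells. S3-like cells were few, with 58, 87, 32, 18, 69, and 13 cells in naive kidneys 1 and 2, rejecting kidneys 1 and 2, and tolerized kidneys 1 and 2, the order used for all series of 6 values. Slc22a7 (Oat2) in S3-like cells was at 523, 722, 1149, 1522, 1469, and 476 CPM, and in S1/S2-like cells at 2.27, 4.75, 63.5, 44.4, 81.5, and 24.6 CPM. It was thus highest in S3-like cells in each kidney, and in S1/S2-like cells every transplanted kidney lay above both naive kidneys.

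Slc22a8 (Oat3, which takes up organic anions from the blood) showed the opposite order. Its level was 283, 256, 260, 257, 390, and 343 CPM in S1/S2-like cells and 27.7, 20.3, 0, 0, 5.85, and 16.9 CPM in S3-like cells. The 2 rejecting kidneys had 0 UMIs of Slc22a8 among 268953 and 164868 UMIs of S3-like cells, which allows levels of up to 11.2 and 18.2 CPM at 3 counts. Slc22a6 (Oat1, the classical carrier of para-aminohippurate) was highest in the intermediate clusters of each kidney, at 653, 703, 799, 884, 917, and 783 CPM, compared with 173, 227, 470, 431, 530, and 324 CPM in S1/S2-like cells. Its S3-like level, 71.4, 119, 63.2, 382, 192, and 81 CPM, was below both in each kidney.

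Slc22a13 (Oat10, a carrier of nicotinate and urate), Slc22a19, Slc22a26, and Slco4c1 followed Slc22a7. Slc22a13 averaged 223 CPM in S3-like and 4.53 in S1/S2-like cells, Slc22a19 averaged 265 and 4.13, and Slc22a26 averaged 57.5 and 0.687. Slco4c1 averaged 51.0 CPM in S3-like cells and 0.057 in S1/S2-like cells. Among the 3 kinds of PT-like cluster, each of these 4, and also Abcc2 and Abcc1, was highest in S3-like cells in all 6 kidneys. Abcc1 averaged only 7.82 CPM there, where 3 counts stood for 2.92 to 18.2 CPM per kidney, so its order rests on few UMIs. Abcc4 (Mrp4, a luminal pump of cyclic nucleotides and drugs) had 0 UMIs in S3-like cells of all 6 kidneys, which allows up to 1.25 CPM over their 2403970 UMIs, and averaged 22.7 CPM in S1/S2-like cells. Slc22a12 (Urat1, the luminal urate carrier) was above its S1/S2-like level in the intermediate clusters of each kidney, with means of 589 and 331 CPM.

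The organic cation carriers Slc22a2 and Slc47a1 were detected in all 3 kinds of PT-like cluster. Slc22a2 (Oct2) averaged 196 CPM in S1/S2-like, 292 in intermediate, and 339 in S3-like cells. Its luminal partner Slc47a1 (Mate1) averaged 231, 246, and 235 CPM. Slc22a3 (Oct3) had 3 UMIs in PT-like cells of 1 kidney and 0 in the other 5.

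Over the 36 points of 6 kidneys and 6 tubular classes, the 3 genes most like Slc22a6 among 13858 genes, by Pearson's r of log2(CPM + 1), were Slco1a6 (0.97), Cyp2j13 (0.97), and Nat8f1 (0.97). The points share libraries and classes, and r is given as a description.

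The first question was how the grafts compared with naive kidneys in PT-like cells. UMIs were summed per kidney and tested with edgeR's quasi-likelihood test, adjusted to a false discovery rate (FDR) of 0.05 over all 12651 genes tested. Of the 39 members, 36 were tested and Slc22a3, Slco4a1, and Slco5a1 were too low. Comparing rejecting with naive kidneys, 18 of 36 passed, 6 higher and 12 lower, while 41.6% of all tested genes passed, 22.5% as higher and 19.2% as lower. Comparing tolerized with naive kidneys, 15 of 36 passed, 6 higher and 9 lower, with 31.7% of all tested genes, 16.7% as higher and 15% as lower. The groups did not overlap for 27 members in the first comparison (75.2% of all genes) and for 24 in the second (71.7%). The median log2 fold change of the 36 was -0.14 and -0.18, compared with 0.06 and 0.05 over all genes. Without naive kidney 1 or 2, which left 1 naive kidney, fewer members and fewer of all genes passed in both comparisons. Both comparisons share the naive kidneys. Levels below are CPM after TMM scaling (edgeR's correction for the makeup of each library), and changes are log2 fold changes ± SE (n = 2 kidneys per group). TMM factors in PT-like cells were 0.839 and 0.861 for naive, 1.155 and 1.162 for rejecting, and 1.078 and 0.956 for tolerized kidneys. The scaled levels of both grafts thus stand lower against naive kidneys than raw CPM do. The kidneys came from separate experiments, but the labels do not say which kidney belongs to which experiment, and the fit has no term for it.

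**Figure D2:**
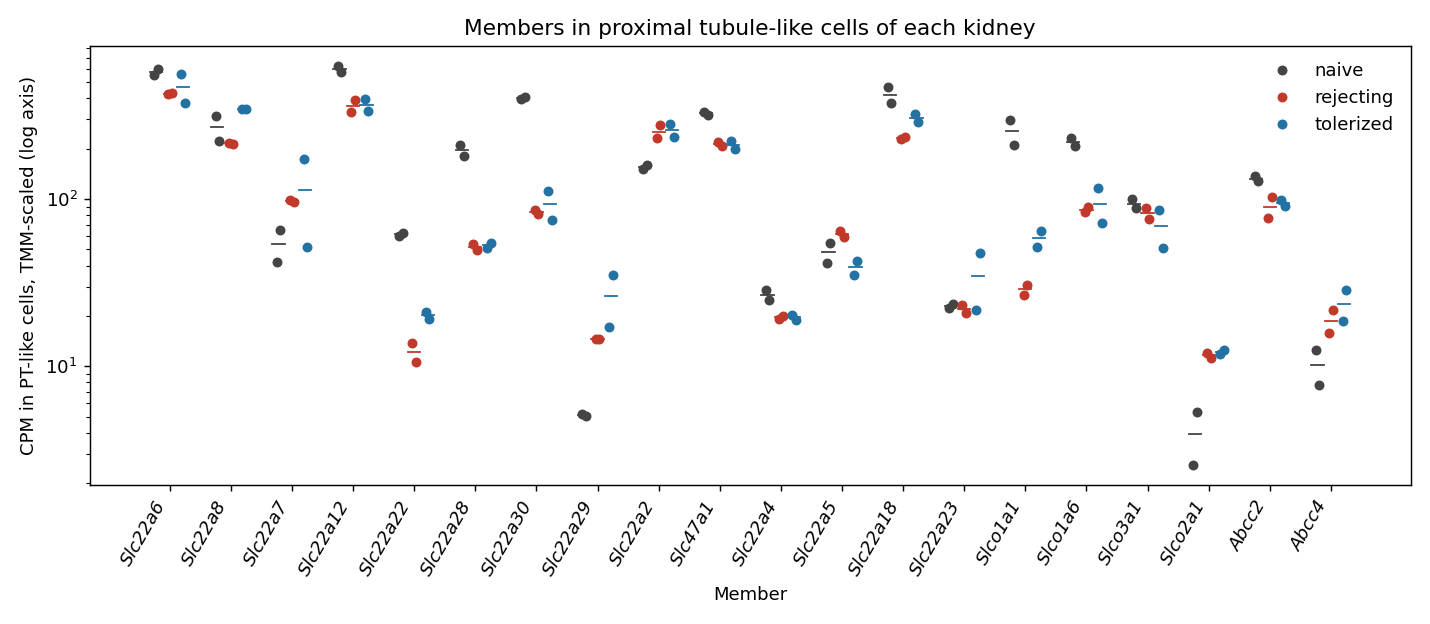
Level of 20 members in proximal tubule-like cells, with 1 point per kidney and a short line for the mean of each group, on a log axis of TMM-scaled CPM. The naive points of Slc22a22, Slc22a28, Slc22a30, Slco1a1, and Slco1a6 lie above all transplanted kidneys, and those of Slc22a29, Slc22a2, Slco2a1, and Abcc4 below them.

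Among the organic anion transporters, Slc22a30, Slc22a28, Slc22a22, and Slc22a12 fell in both kinds of graft. Slc22a30 was at 395, 407, 86.2, 81.1, 111, and 74.7 CPM, a change of -2.26 ± 0.21 in rejecting (FDR 0.000174) and -2.11 ± 0.21 in tolerized kidneys (FDR 0.000287). Slc22a28 was at 210, 182, 53.8, 49.7, 51.1, and 54.9 CPM, a change of -1.92 ± 0.16 (FDR 0.000103) and -1.89 ± 0.16 (FDR 0.000126). In both genes the 4 transplanted kidneys lay close together and far below the naive kidneys. Within the small S3-like clusters neither gene passed. Slc22a30 changed there by -0.56 (FDR 0.223) and -0.11 (FDR 0.813), and Slc22a28 by -0.096 (FDR 0.902) and 0.078 (FDR 0.909).

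Slc22a22, a prostaglandin carrier of the mouse proximal tubule, was at 60.4, 62.8, 13.9, 10.7, 21.2, and 19.1 CPM. It fell by 2.32 on the log2 scale in rejecting kidneys (SE 0.19, FDR 8.33e-05) and by 1.61 in tolerized kidneys (SE 0.18, FDR 0.000468). Slc22a12 was at 626, 573, 334, 391, 397, and 334 CPM and changed by -0.73 ± 0.18 (FDR 0.0127) and -0.71 ± 0.18 (FDR 0.0179). The call was lost within S1/S2-like clusters, where Slc22a12 changed by 0.16 in both grafts (FDR 0.473 and 0.507), and within intermediate clusters, where it changed by -0.25 and -0.24 (FDR 0.347 and 0.356).

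Slc22a29, the neighbor of Slc22a28 and Slc22a30, went the other way. It was chosen for display after its values were seen, because its mean is below 20 CPM. Its level was 5.2, 5.07, 14.6, 14.5, 17.2, and 35.2 CPM, a change of 1.5 ± 0.33 in rejecting (FDR 0.00817) and 2.35 ± 0.33 in tolerized kidneys (FDR 0.00149). Within S1/S2-like clusters it changed by 0.34 (FDR 0.418) and 1.19 (FDR 0.0192), and within intermediate clusters by 2.37 (FDR 0.0367) and 3.33 (FDR 0.000562).

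The 2 main uptake carriers of organic anions did not pass in the PT-like sum. Slc22a6 was at 552, 599, 423, 433, 559, and 376 CPM, with changes of -0.43 ± 0.21 (FDR 0.135) and -0.30 ± 0.21 (FDR 0.304). It was higher in both grafts within S1/S2-like clusters, by 0.68 (FDR 0.041) and 0.76 (FDR 0.0347). Slc22a8 was at 314, 223, 217, 214, 344, and 348 CPM, with changes of -0.32 ± 0.19 (FDR 0.216) and 0.36 ± 0.19 (FDR 0.179). Slc22a8 fell in rejecting kidneys within S1/S2-like clusters, by 0.55 (FDR 0.0262), and changed by 0.13 in tolerized kidneys (FDR 0.577). Before TMM scaling, its raw S1/S2-like levels given above overlapped between naive and rejecting kidneys.

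Slc22a7 was at 42.2, 65.7, 99, 95.5, 174, and 51.5 CPM in the PT-like sum, where it did not pass (0.85 ± 0.48, FDR 0.18, and 1.07 ± 0.47, FDR 0.119). The 2 tolerized kidneys lay on both sides of the rejecting ones. Within S1/S2-like clusters Slc22a7 rose by 3.52 (FDR 0.00196) and 3.61 (FDR 0.00233), and within intermediate clusters by 2.72 (FDR 7.16e-05) and 2.80 (FDR 4.4e-05). Within S3-like clusters its change in rejecting kidneys was 0.83 (FDR 0.209). Slc22a13, Slc22a19, and Slc22a26 did not pass in the PT-like sum in either graft. Within intermediate clusters Slc22a19 rose by 2.35 (FDR 0.00218) and 2.27 (FDR 0.00103). Slc22a13 changed there by 1.865 (FDR 0.0202) and 1.09 (FDR 0.0931), and Slc22a26 by 1.6 (FDR 0.272) and 2.21 (FDR 0.0283). Within S1/S2-like clusters Slc22a19 passed in rejecting kidneys only (2.79, FDR 0.0497), Slc22a13 in tolerized kidneys only (2.915, FDR 0.0471), and Slc22a26 in neither. Within S3-like clusters only Slc22a26 of these passed, in tolerized kidneys (1.85, FDR 0.019).

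Of the organic cation carriers, Slc22a2 rose and the luminal Slc47a1 fell in both grafts. Slc22a2 was at 152, 159, 231, 276, 281, and 236 CPM and rose by 0.70 ± 0.17 in rejecting (FDR 0.013) and 0.73 ± 0.17 in tolerized kidneys (FDR 0.0148). The rise was larger within S1/S2-like clusters, at 1.69 (FDR 0.00037) and 1.70 (FDR 0.000452).

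Slc47a1, which releases organic cations into the urine, was at 332, 319, 219, 208, 222, and 200.4 CPM. It fell by 0.61 in rejecting (SE 0.155, FDR 0.0146) and by 0.62 in tolerized kidneys (SE 0.155, FDR 0.0178). The 4 transplanted kidneys all lay below the naive ones. With at most 20% mitochondrial UMIs per cell the change was -0.16 (FDR 0.43) and -0.08 (FDR 0.739), and within S1/S2-like clusters -0.35 (FDR 0.117) and -0.37 (FDR 0.119), so the call depended on which cells were summed.

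The carnitine and zwitterion carriers held few calls. Slc22a5 (Octn2, the carnitine carrier) was at 41.4, 54.5, 64.6, 59.1, 35.3, and 42.8 CPM and did not pass in rejecting (0.37 ± 0.19, FDR 0.151) or tolerized kidneys (-0.29 ± 0.19, FDR 0.264). Slc22a4 (Octn1, a carrier of ergothioneine) was at 28.5, 24.9, 19.3, 19.9, 20.3, and 19 CPM, with changes of -0.45 ± 0.16 (FDR 0.0538) and -0.44 ± 0.16 (FDR 0.0629). Slc22a21 did not pass. Slc22a15 passed in rejecting kidneys only, on 3 and 3 UMIs in the naive, 25 and 14 in the rejecting, and 32 and 16 in the tolerized kidneys. Its mean was 17.8 raw CPM in leukocyte-like cells, its highest class, and 0.876 in PT-like cells, where leukocyte markers were also highest in the rejecting kidneys (given below), and their part in this call was not tested. The change was 1.76 within S1/S2-like clusters (FDR 0.0906).

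Of the other Slc22a members, Slc22a18, a polyspecific carrier, was at 466, 376, 228, 236, 323, and 290 CPM. It fell by 0.86 in rejecting kidneys (SE 0.17, FDR 0.0058) and did not pass in tolerized kidneys (-0.46 ± 0.17, FDR 0.0755). It fell within S1/S2-like clusters (-0.76, FDR 0.00702) and did not pass within intermediate clusters (0.14, FDR 0.633). Slc22a23 was at 22.2, 23.5, 23.4, 20.8, 21.7, and 47.9 CPM, where the second tolerized kidney stood apart, and Slc22a17, a receptor for the iron-binding protein lipocalin-2, did not pass either.

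Slco1a1, an anion carrier of the luminal membrane, changed direction with the set of cells that was summed. In all PT-like cells it was at 298, 212, 26.8, 30.8, 51.4, and 64.9 CPM, a fall of 3.15 in rejecting (SE 0.23, FDR 4.94e-05) and of 2.13 in tolerized kidneys (SE 0.22, FDR 0.000318). In raw CPM it stood at 402, 282, 96.7, 81.9, 121, and 273 in intermediate clusters and at 11.5, 13.1, 25.9, 23, 36.7, and 43.5 in S1/S2-like clusters. The order of the groups thus turned around between the sets of cells, with naive kidneys highest in the first and lowest in the second. Within intermediate clusters Slco1a1 fell by 2.01 in rejecting kidneys (FDR 0.0037) and did not pass in tolerized kidneys (-0.65, FDR 0.193). Within S1/S2-like clusters it rose by 1.41 in tolerized kidneys (FDR 0.0022) and did not pass in rejecting kidneys (0.51, FDR 0.0975).

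Slco1a6, the neighbor of Slco1a1, was at 232, 209, 83.6, 89.1, 116, and 71.7 CPM and fell by 1.35 in rejecting (SE 0.23, FDR 0.00277) and by 1.23 in tolerized kidneys (SE 0.23, FDR 0.00547). Its fall was present within S1/S2-like clusters (-1.04, FDR 0.00698, and -0.99, FDR 0.0113), whereas within intermediate clusters the changes were -0.42 (FDR 0.12) and -0.15 (FDR 0.575). Slco3a1 was at 99.5, 88.3, 88.5, 76.3, 86.4, and 50.9 CPM and did not pass in either graft (FDR 0.564 and 0.188), but within S1/S2-like clusters it was higher, by 1.18 (FDR 0.00642) and 0.86 (FDR 0.0288).

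Slco2a1, the prostaglandin transporter, was at 2.57, 5.3, 12.1, 11.2, 11.8, and 12.6 CPM in PT-like cells and rose by 1.59 ± 0.31 (FDR 0.00503) and 1.66 ± 0.30 (FDR 0.00519). The 4 transplanted kidneys were nearly equal, and the rise was seen within S1/S2-like clusters (1.87 and 1.90) and within intermediate clusters (1.89 and 1.80), with an FDR of at most 0.0112. Endothelium-like cells, the class where Slco2a1 is highest, had 272, 279, 185, 177, 142, and 280 CPM (raw). There both rejecting kidneys lay below both naive ones, and the tolerized kidneys overlapped both groups. Slco2b1 fell on 28 and 24 UMIs in the naive, 8 and 4 in the rejecting, and 21 and 21 in the tolerized kidneys, and Slco4c1 did not pass. The highest class of Slco2b1 was leukocyte-like cells, at a mean of 11.3 raw CPM, and their part in its fall was not tested. Slco1a4 passed in rejecting kidneys only, on 16, 13, 2, 1, 16, and 5 UMIs.

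Among the Abcc pumps, Abcc2 (Mrp2, a luminal pump of conjugated anions) was at 137, 129, 76.9, 102, 99.1, and 91.3 CPM. It fell by 0.57 in rejecting kidneys (SE 0.18, FDR 0.0332) and did not pass in tolerized kidneys (-0.48 ± 0.18, FDR 0.0707). The call in rejecting kidneys was lost within S1/S2-like clusters (-0.20, FDR 0.438), within intermediate clusters (-0.58, FDR 0.0519), and with at most 20% mitochondrial UMIs per cell (-0.45, FDR 0.066). Abcc4 was at 12.6, 7.76, 15.8, 21.7, 18.6, and 28.6 CPM and rose by 0.86 ± 0.30 (FDR 0.0497) and 1.2 ± 0.30 (FDR 0.0172). Within S1/S2-like clusters, where it is highest, the changes of Abcc4 were 0.11 (FDR 0.768) and 0.47 (FDR 0.208), and within intermediate clusters they were -0.13 (FDR 0.92) and -0.011 (FDR 0.991).

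Abcc3 (Mrp3, a basolateral pump) passed as higher in both grafts, on 1 and 0 UMIs in the naive, 19 and 9 in the rejecting, and 24 and 10 in the tolerized kidneys. Of these, 10 and 8 in the rejecting and 19 and 8 in the tolerized kidneys came from S3-like cells. Abcc9, a regulatory subunit of potassium channels, passed as lower in both, on 48, 69, 3, 2, 18, and 25 UMIs. Abcc1, Abcc5, Abcc6, and Abcc10 did not pass in either graft.

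**Figure D3:**
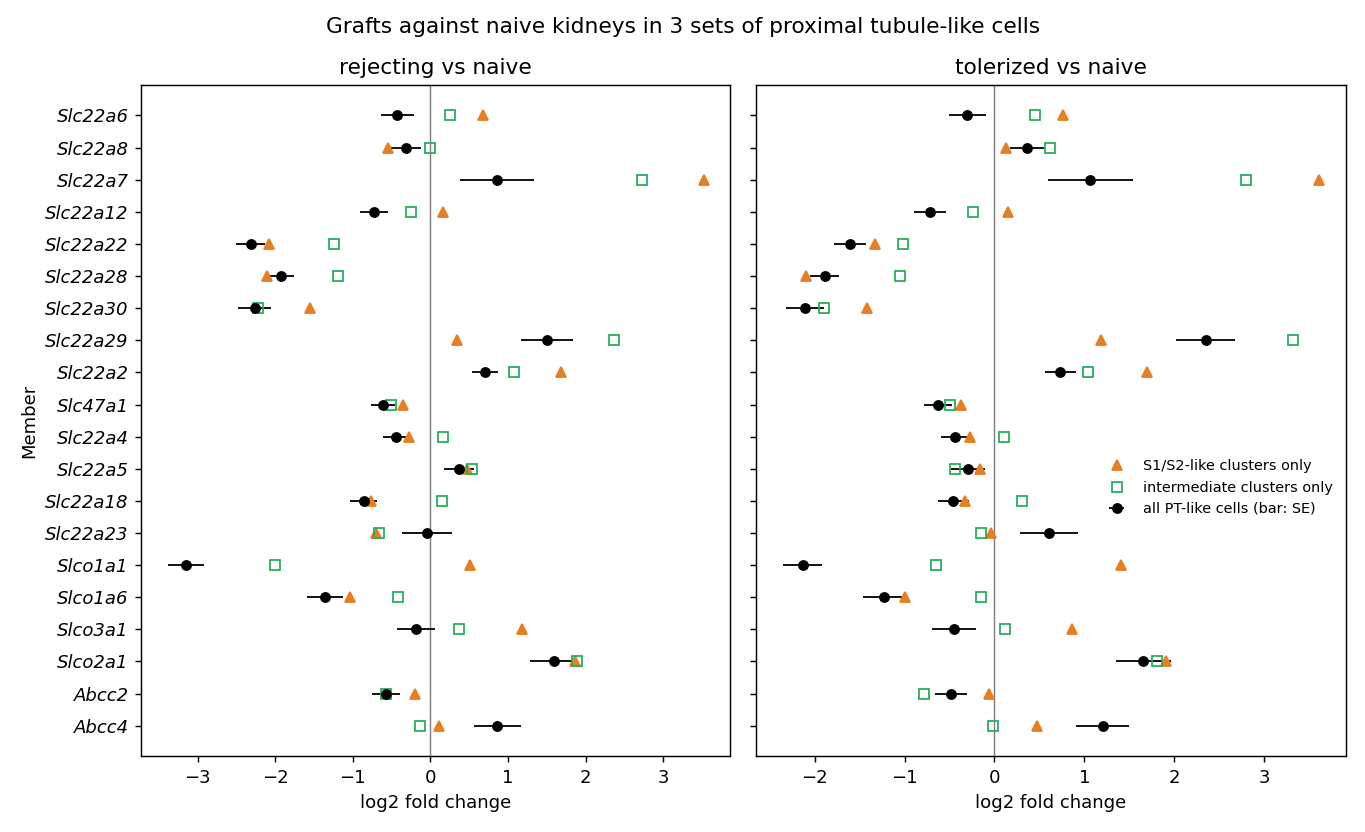
Log2 fold change of 20 members in rejecting (left) and tolerized (right) against naive kidneys, in all proximal tubule-like cells (black, bar for SE), in S1/S2-like clusters (triangles), and in intermediate clusters (squares). The 3 symbols of Slc22a22, Slc22a28, and Slc22a30 lie below 0 and those of Slc22a2 and Slco2a1 above 0 in both panels, whereas those of Slco1a1 lie on both sides of 0.

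Across the sets of cells, 5 of the 18 members that passed in rejecting kidneys also passed in the same direction within S1/S2-like and within intermediate clusters, of 13 that were tested in both. They were Slc22a22, Slc22a28, and Slc22a30, which fell, and Slc22a2 and Slco2a1, which rose. In tolerized kidneys 7 of 12 did so, among them the same 5 genes and Slc22a29. No share over all genes stands beside these counts. Both sets are parts of the PT-like sum, so agreement is partly built in. The direction turned in at least 1 of the 2 sets for Abcc4, Slc22a12, and Slco1a1 in both comparisons and for Slc22a18 in rejecting kidneys. With S1/S2-like clusters alone, 6 of 30 tested members were higher and 6 lower in rejecting kidneys (21% and 18.8% of all 12003 genes), and 9 higher and 4 lower in tolerized kidneys (15.2% and 14.2%). With at most 20% mitochondrial UMIs, 10 of 31 were higher and 7 lower in rejecting kidneys (24.3% and 20.4% of all 11832 genes), and 11 higher and 5 lower in tolerized kidneys (18.8% and 16.2%). That limit kept 34.9% and 36.4% of naive PT-like cells and 47.7% to 74.6% of those of transplanted kidneys. The share of members that fell therefore depended on which cells were summed.

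Other measures moved with the groups in PT-like cells. The summed level of 46 leukocyte markers, all detected, stood at 112 and 117 CPM for naive kidneys, at 888 and 434 for rejecting ones, and at 267 and 220 for tolerized ones. The 7 injured tubule markers summed to 318 and 314, 1184 and 2864, and 1576 and 1659 CPM, and the kidney injury gene Havcr1 was at 0.144 and 0.463, 21.3 and 55.4, and 40 and 6.18 CPM. Mitochondrial UMIs made up a median of 25.4% and 24.8% per cell in naive kidneys and 15% to 21% in the grafts. Their part in the changes of the members was not tested.

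Genes that work with the transporters were followed as a list of 25 regulators, scaffold proteins, and partner carriers. In rejecting compared with naive kidneys 10 of 25 passed, 3 higher and 7 lower, next to 41.6% of all genes, and in tolerized kidneys 6 passed, 3 higher and 3 lower, next to 31.7%. Within S1/S2-like clusters 8 of 25 passed in rejecting kidneys, 5 higher and 3 lower, next to 21% of all genes as higher and 18.8% as lower. In tolerized kidneys 5 of 25 passed there, all higher, next to 15.2% as higher and 14.2% as lower. Slc10a2, which takes up bile acids, was at 28.7, 34.7, 118, 96.5, 93.2, and 65.4 CPM and rose by 1.76 in rejecting kidneys (FDR 0.000715). Ppara, a fatty acid-sensing nuclear receptor, rose by 1.38 (FDR 0.0124), and Slc51a, a subunit of the basolateral bile acid exporter, rose by 0.74 (FDR 0.0247). These 3 genes were also higher within S1/S2-like clusters of rejecting kidneys, by 3.37 (FDR 5.72e-05), 1.26 (FDR 0.017), and 1.30 (FDR 0.00568). Within intermediate clusters Slc10a2 rose by 2.12 (FDR 1.69e-05) and Slc51a by 0.86 (FDR 0.0127), but Ppara did not pass (0.70, FDR 0.245).

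The scaffold genes Slc9a3r2 and Slc9a3r1, which tether luminal carriers, changed by -1.25 (FDR 0.0257) and -0.71 (FDR 0.009) in rejecting kidneys. They changed by -1.31 (FDR 0.0367) and -0.48 (FDR 0.0481) within S1/S2-like clusters. Within intermediate clusters neither passed (-1.23, FDR 0.153, and -0.25, FDR 0.389). The carriers Slc5a8 and Slc17a1, of monocarboxylates and of urate and phosphate, changed by -1.18 (FDR 0.00518) and -0.92 (FDR 0.00416) in the PT-like sum. Slc5a8 went the other way within S1/S2-like clusters, at 14.2, 29, 97.4, 75.7, 99.5, and 57.9 raw CPM, and rose by 1.53 in rejecting kidneys (FDR 0.00785) and by 1.54 in tolerized kidneys (FDR 0.0104), whereas within intermediate clusters it changed by -0.39 (FDR 0.157) and -0.51 (FDR 0.0586). The call of Slc17a1 was lost in both sets (-0.45, FDR 0.0669, and -0.33, FDR 0.174, in rejecting kidneys). Hnf4a was at 181, 210, 205, 184, 195, and 212 CPM and did not pass (-0.01, FDR 0.976). No gene of this list passed between tolerized and rejecting kidneys.

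The second question was whether tolerized and rejecting grafts differed, a comparison of kidneys of the same strain, age, and day. In PT-like cells 0 of 36 members passed by edgeR, as did 0% of all 12651 genes. At an unadjusted p under 0.05 there were 8 members and 1419 genes, and DESeq2 called 1 member, Slco1a1, and 1.49% of genes. When 200 genes were changed in simulated counts of these kidneys, edgeR called 62% of them at 2-fold and 100% at 4-fold. The changed genes were drawn from those above a minimum level, and all other genes were left equal. Several members lay below that level, and these shares do not cover them. The 2 groups did not overlap for 12 of 36 members, 9 higher and 3 lower in tolerized kidneys, compared with 38.9% of all genes. The median log2 fold change was 0.13 over the 36 members and 0 over all genes.

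**Figure D4:**
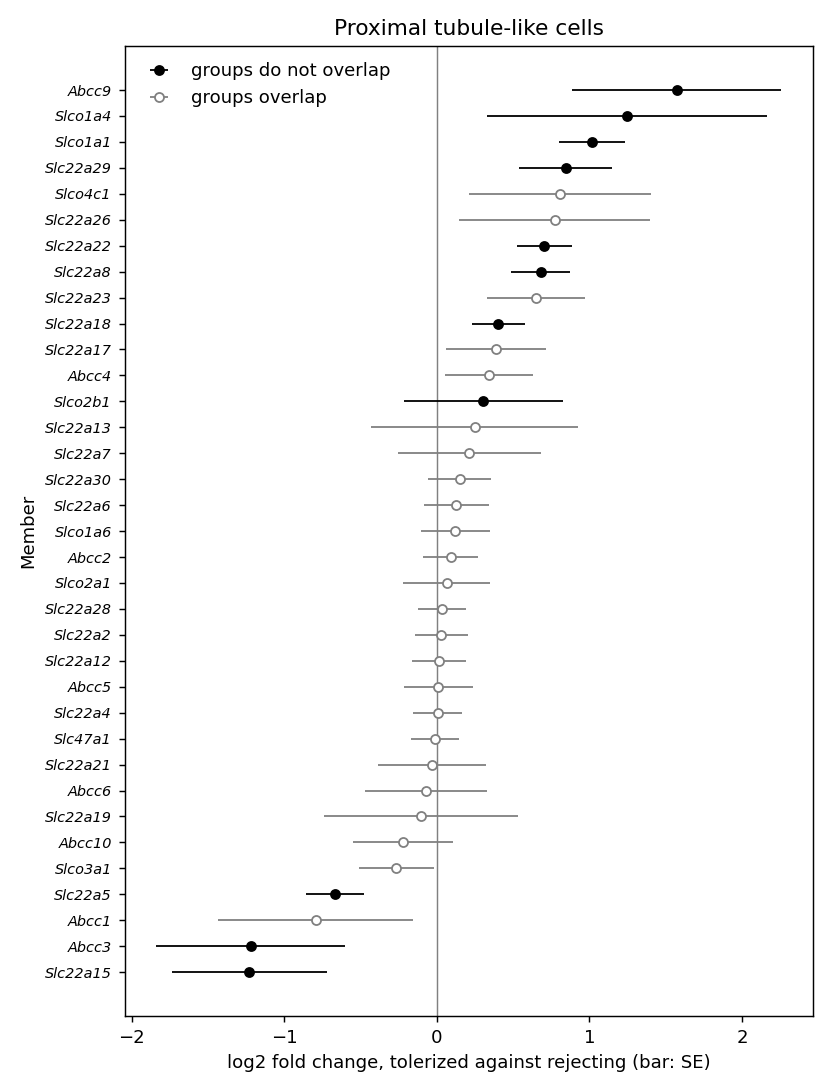
Log2 fold change of 35 of the 36 tested members in tolerized against rejecting kidneys, in proximal tubule-like cells, with bars for the SE. Filled points mark the 11 of them whose groups do not overlap, and none passed the FDR by edgeR.

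Slco1a1 had the smallest p of the members in this comparison, with 26.8 and 30.8 CPM in rejecting and 51.4 and 64.9 CPM in tolerized kidneys, a change of 1.02 ± 0.22 (edgeR's unadjusted p = 0.00134, FDR 0.214). DESeq2 gave it an FDR of 0.00629, and the change was 0.90 within S1/S2-like (FDR 0.181) and 1.35 within intermediate clusters (FDR 0.367). Slc22a22 changed by 0.71 ± 0.18 (FDR 0.217) and Slc22a8 by 0.68 ± 0.19 (FDR 0.243), with both tolerized kidneys above both rejecting ones. Slc22a5 went the other way, from 64.6 and 59.1 CPM in rejecting to 35.3 and 42.8 CPM in tolerized kidneys (-0.66 ± 0.19, FDR 0.243).

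Several members lay close in the 2 kinds of graft. The change was 0.01 ± 0.18 for Slc22a12, -0.01 ± 0.155 for Slc47a1, 0.03 ± 0.16 for Slc22a28, 0.03 ± 0.17 for Slc22a2, and 0.13 ± 0.21 for Slc22a6. A change within about 2 SE of 0 is not shown to be absent. Without a filter on low counts, 6 members passed: Slco1a1 (FDR 3.47e-05), Slc22a29 (FDR 0.00237), Slc22a8 (FDR 0.0153), Slc22a22 (FDR 0.0169), and Slc22a23 (FDR 0.0278) as higher and Slc22a5 (FDR 0.0452) as lower in tolerized kidneys, among 855 genes or 4.57%. With the filter edgeR made none of these 6 calls.

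Beyond the proximal tubule, a few members had their highest mean in other segments, with PT-like cells taken as a single class. Slc22a17 was highest in CD-like cells in all 6 kidneys, at 53.1, 76, 35.6, 34.9, 37.6, and 29.9 raw CPM, with a mean of 55.9 in principal and 24 in intercalated cells. Slc22a23 was highest in DCT-like cells, at 63.2, 45.1, 38.9, 43.2, 43.6, and 62.1 raw CPM. In TAL-like cells, Slc22a4 was at 36.5, 20.2, 19.3, 30.8, 30, and 28 raw CPM, which overlaps its PT-like level.

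Abcc1 (Mrp1, a pump of glutathione conjugates) was highest in TAL-like cells at 38.9, 39.1, 27.4, 31.9, 34.5, and 35.9 raw CPM, close to its CD-like mean of 30.9. Abcc4 in CD-like cells was at 20.5, 18.8, 38.6, 19.7, 30.7, and 35.1 raw CPM, and Abcc5 at 21.5, 19.4, 24.4, 28.7, 32, and 24.9, next to a leukocyte-like mean of 24.7. Slco4c1 averaged 5.70 CPM in CD-like cells, above its PT-like mean of 1.09 but below its mean of 51.0 in the few S3-like cells. Slco2b1 in leukocyte-like cells was at 20.5 and 42.5 raw CPM in naive and at 0.765 to 1.57 in transplanted kidneys. The naive values came from only 159 and 283 cells, compared with 2086 to 6187 in transplanted kidneys. The makeup of the class differed too. A cluster led by macrophage genes held 35 and 97 of the naive cells and 74 to 272 of those of each transplanted kidney.

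**Figure D5:**
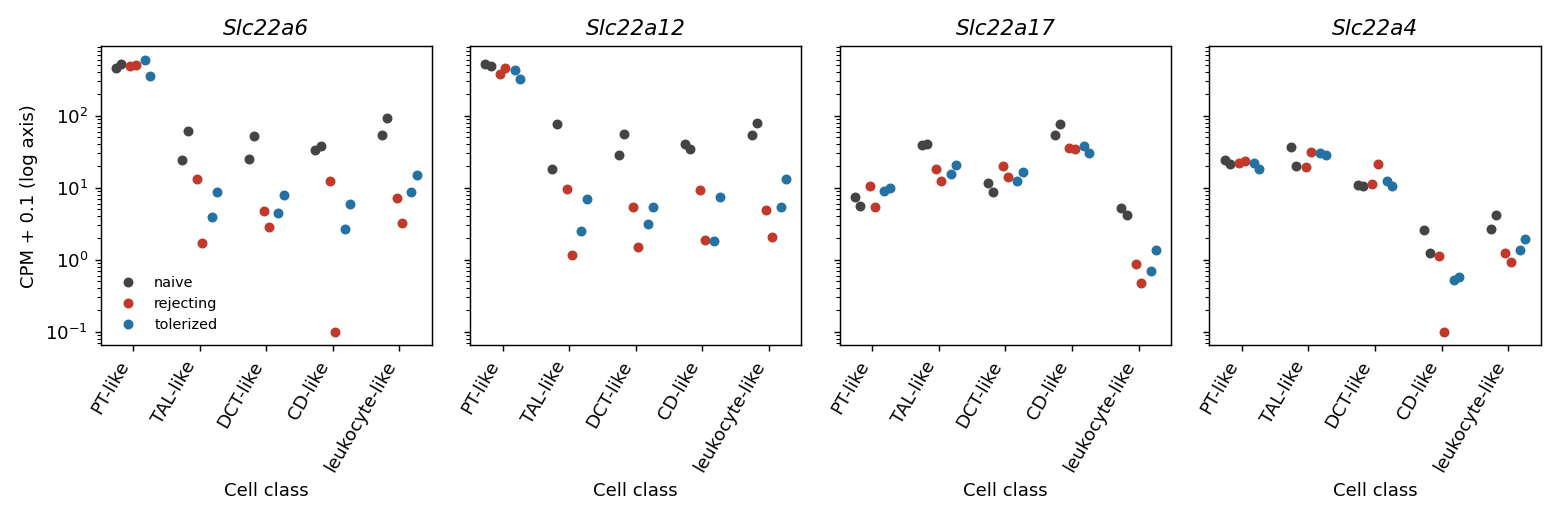
Level of 4 members in 5 classes of cells, with 1 point per kidney, on a log axis of raw CPM plus 0.1. In the 3 distal classes and in leukocyte-like cells, Slc22a6 is highest in the naive kidneys, whereas in TAL-like cells Slc22a17 and Slc22a4 lie above their leukocyte-like level in all 6 kidneys.

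Slc22a6 and other members highest in PT-like cells were also counted at low levels in the distal classes and in leukocyte-like cells. The source of these counts was not tested. Slco3a1 was an exception, with means of 53.0, 67.5, and 63.1 raw CPM in TAL-like, DCT-like, and CD-like cells. Its mean was 39.4 in leukocyte-like and 82.0 in PT-like cells. Slc22a6 was at 53.8, 91.9, 7, 3.1, 8.7, and 14.7 raw CPM in leukocyte-like cells and at 24.7, 51.6, 4.61, 2.79, 4.43, and 7.95 in DCT-like cells. In both classes the naive kidneys were highest. The 10 proximal tubule markers behaved likewise, with 4868 and 6644 CPM in leukocyte-like cells of naive kidneys and 253 to 1389 in those of transplanted kidneys. By share of cells, 9.43% and 19.8% of naive leukocyte-like cells had a UMI of Slc22a6, compared with 1.03% to 8.58% in transplanted kidneys and 55.1% to 76.5% of PT-like cells. After thinning to 1000 UMIs per cell, these shares were 3.77% and 7.77%, 0.328% to 2.21%, and 24.6% to 38.7%. Thinning left out 456, 109, 122, and 139 PT-like cells of the transplanted and 0 of the naive kidneys.

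Comparing grafts with naive kidneys by edgeR, 7 of 21 tested members passed in TAL-like cells in rejecting and 8 in tolerized kidneys, all lower (16.2% and 10.4% of all genes, and 7.48% and 5.1% as lower). In DCT-like cells 12 and 13 of 22 passed, all lower (21.4% and 16.2% of all genes, and 10% and 7.68% as lower). Almost all naive DCT-like cells (504 and 480) lay in a cluster with 1 to 13 cells of each transplanted kidney. The other DCT-like cluster held 2 and 3 naive cells and 179 to 432 of each transplanted kidney. Changes in DCT-like cells therefore also compare different clusters. In CD-like cells 7 of 21, 6 of them lower, and 8, all lower, passed (17.2% and 14.7% of all genes, 7.71% and 6.72% as lower, and 9.52% as higher in rejecting kidneys). In each of these 6 comparisons only 1 of the members called lay above its leukocyte-like level in all 6 kidneys, Slc22a17 in TAL-like and CD-like cells and Slco4a1 in DCT-like cells. Of the other members called, 2 in each comparison of DCT-like cells were at or below their leukocyte-like level in all 6 kidneys, and the rest, 6 and 7 in TAL-like, 9 and 10 in DCT-like, and 6 and 7 in CD-like cells, lay above it in 1 to 5 kidneys. How much of their counts came from the distal cells themselves was not tested. With at most 20% mitochondrial UMIs, 0 of 12 tested members passed in TAL-like cells, next to 313 and 160 of all 7167 genes. Leaving out naive kidney 2 lowered the counts of members called in TAL-like, DCT-like, and CD-like cells. Leaving out naive kidney 1 lowered them in DCT-like and CD-like cells and, for tolerized kidneys, in TAL-like cells. In TAL-like and CD-like cells, the counts in rejecting kidneys fell without rejecting kidney 2. Those in tolerized kidneys fell there, and in DCT-like cells, without either tolerized kidney. Each of these fits left 1 kidney in a group, and the counts of all genes called fell as well.

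Slc22a17 was at 41.3, 43.5, 18.1, 11.8, 14.7, and 21.4 CPM in TAL-like cells and fell by 1.5 in rejecting (SE 0.31, FDR 0.00764) and by 1.2 in tolerized kidneys (SE 0.28, FDR 0.0178). In CD-like cells it was at 53.9, 76.8, 35.9, 33.7, 37.2, and 31.3 CPM and fell by 0.90 (SE 0.25, FDR 0.0306) and by 0.94 (SE 0.22, FDR 0.0184). Principal cells, where its mean was higher, were 209 of 305 and 241 of 285 CD-like cells in naive kidneys. They were 42 of 91 and 48 of 79 in rejecting, and 91 of 132 and 196 of 266 in tolerized kidneys. The part of this makeup in the fall was not tested. In DCT-like cells Slc22a17 did not pass (0.50 ± 0.35, FDR 0.353, and 0.34 ± 0.32, FDR 0.524). Slco4a1, a carrier of thyroid hormone, was at 18.1, 17.9, 8.77, 7.86, 8.42, and 6.51 CPM in DCT-like cells and fell by 1.11 (SE 0.33, FDR 0.0316) and by 1.28 (SE 0.29, FDR 0.0111). Naive and transplanted DCT-like cells came almost wholly from different clusters, as given above, and the part of this in the fall was not tested.

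Abcc3 in CD-like cells was the 1 member called as higher, with 9, 2, 23, 16, 19, and 30 UMIs in the 6 kidneys, and changes of 2.62 ± 0.56 (FDR 0.0107) and 1.37 ± 0.56 (FDR 0.129). Its level exceeded that of leukocyte-like cells in 3 of 6 kidneys. Between tolerized and rejecting kidneys, 0 members passed by edgeR or DESeq2 in TAL-, DCT-, or CD-like cells. At an unadjusted edgeR p under 0.05 there were 0 of 21, 1 of 22, and 1 of 21 members, next to 659 of 9712, 715 of 9882, and 657 of 10429 genes. At an FDR of 0.05 the share of all genes passing was 0.36%, 0.0202%, and 0.0192% by edgeR and 0.34%, 0.344%, and 0.0959% by DESeq2. In simulated data of these comparisons, with changed genes drawn in the same way, 39%, 36%, and 24.5% of genes changed by 2-fold were recovered.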

How the data were processed

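Libraries of 2 naive, 2 rejecting, and 2 tolerized kidneys were sequenced per the labels by droplet scRNA-seq. The authors deposited raw UMI counts per gene and barcode, 1 matrix per kidney, with mm10, Cell Ranger, and bcl2fastq named in the submitters' processing notes. Headers of the transplant matrices give version 3.0.1 of Cell Ranger, and those of the naive matrices give none. Matrices held 8532 to 13378 barcodes and 34874702 to 96803926 UMIs. Barcodes shared by 2 libraries numbered 111 for the naive pair, 18 to 35 among the transplanted, and 0 to 4 between them.

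Barcodes needed 500 or more UMIs, 250 or more genes, and a mitochondrial share of 50% or less (49797 cells). Scrublet scores (scanpy 1.11.5) were used to remove 0.8% per 1000 barcodes as doublets (4130), where its own threshold called 438. The remaining 45667 cells and the doublets were clustered together (2500 variable genes without the members, partner genes, sex-linked markers, and ribosomal and mitochondrial genes, 40 principal components, 20 neighbors, leidenalg 0.10.2 at a resolution of 1.5, 42 clusters), and clusters needed at least 3 markers for a name. The minimum of 6 S3 markers was set after marker counts were seen.

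UMIs summed per kidney and class were tested with edgeR 4.0.16 (TMM, filterByExpr, quasi-likelihood, group only, all 6 kidneys, Benjamini-Hochberg over all genes), and DESeq2 1.42.0 was an alternative. Other alternatives were DESeq2's size factors, no filter, a replicate block, at most 20% mitochondrial UMIs, doublets kept, each kidney left out, and S1/S2-like or S3-like clusters only. Intermediate clusters only were added after the data were seen. The fit was tested on simulated data with 200 changed genes. Values of all kidneys are given for members with at least 20 CPM in PT-like cells or in their highest class. The members and lists were chosen with earlier results of these data known. Limits at 3 counts cover counting error only, whereas SEs and FDRs rest on the spread between kidneys, which may be technical. Positions are from GENCODE M21 and promoter windows from RefSeq, which held 30 of the 39 members. R 4.3.3 and Python 3.11.15 were used. Counts cover all members and partner genes, but the values of some genes are not reported here.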

Additional observations from a re-analysis of the deposited data

How the results depend on the processing

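Of the values of 21 members in PT-like cells under settings other than leaving out a kidney, 435 kept their direction and their side of the threshold, 38 lost and 28 gained a call, and 48 changed sign, 13 with a call on at least 1 side and 35 with none. In the following, log2 changes against naive kidneys are given for rejecting and then tolerized kidneys. Within S1/S2-like clusters they turned to 0.16 and 0.16 for Slc22a12, 0.68 and 0.76 for Slc22a6, 0.51 and 1.41 for Slco1a1, and 1.18 and 0.86 for Slco3a1, and to -0.042 for Slc22a23 in tolerized kidneys. Within intermediate clusters they turned to -0.13 and -0.011 for Abcc4, 0.14 and 0.31 for Slc22a18, 0.16 and 0.10 for Slc22a4, 0.25 and 0.45 for Slc22a6, and 0.36 and 0.12 for Slco3a1, and to -0.15 for Slc22a23 in tolerized kidneys. Within S3-like clusters they turned to 0.98 and 1.20 for Slc22a4, 0.82 and 0.37 for Slc22a6, and 0.42 and 0.12 for Slco3a1, and in tolerized kidneys to 0.078 for Slc22a28 and 0.052 for Slco1a6. With at most 20% mitochondrial UMIs they turned to 0.45 for Slc22a23, 0.083 for Slc22a8, and 0.018 for Slco3a1 in rejecting kidneys, and to 0.022 for Slc22a5 and 0.21 for Slc22a6 in tolerized kidneys. The cause was not tested.

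Between tolerized and rejecting kidneys the sign changed, with no call, to -0.0035 for Slc22a12 and -0.0024 for Slc22a4 within S1/S2-like clusters, and to -0.21 for Abcc2, -0.028 for Slc22a2, -0.060 for Slc22a4, 0.0078 for Slc47a1, and -0.088 for Slco2a1 within intermediate clusters. It changed to -0.39 for Abcc2, -0.46 for Slc22a6, -0.37 for Slc22a7, 0.25 for Slc47a1, and -0.58 for Slco1a1 within S3-like clusters, to -0.089 for Abcc4 and 0.088 for Slc47a1 with the mitochondrial limit, and to 0.022 for Slc47a1 with no filter. Leaving out each kidney changed the sign of 22 values, none with a call. The ranges were -0.097 to 0.32 for Abcc2, -0.11 to 0.14 for Slc22a12, -0.091 to 0.18 for Slc22a2, -0.021 to 1.12 for Slc22a23, -0.0088 to 0.097 for Slc22a28, -0.15 to 0.42 for Slc22a30, -0.031 to 0.064 for Slc22a4, -0.18 to 0.40 for Slc22a6, -0.91 to 0.85 for Slc22a7, -0.079 to 0.071 for Slc47a1, -0.26 to 0.44 for Slco1a6, and -0.69 to 0.077 for Slco3a1. Against naive kidneys they were -0.13 to 0.029 (rejecting) and -0.077 to 1.07 (tolerized) for Slc22a23 and -0.058 to 1.69 for Slc22a7 in tolerized kidneys.

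Counts of members called in PT-like cells were 2 with S3-like clusters only in both grafts and 11 with intermediate clusters only in rejecting kidneys, where fewer cells and members were tested. Counts of all genes were then 466 and 481 (S3-like) and 2490 (intermediate). Between tolerized and rejecting kidneys, DESeq2 called 1 member and 189 genes, no filter 6 members and 855 genes, and intermediate clusters 0 members and 1 gene. In TAL-like cells members called in rejecting kidneys were 14 of 35 tested with no filter, 0 of 12 with at most 20% mitochondrial UMIs, and 12 of 24 with doublets kept. In tolerized kidneys they were 5 of 21 with DESeq2, 13 of 35 with no filter, and 0 of 12 with at most 20% mitochondrial UMIs. In DCT-like cells that limit gave 3 and 2 of 8 tested members, where the main fit tested 22. In CD-like cells the counts in rejecting kidneys were 3 of 21 with DESeq2, 13 of 38 with no filter, 4 of 13 with the mitochondrial limit, and 13 of 25 with doublets kept. In tolerized kidneys they were 5, 14, and 5 with the first 3 of these. All genes called, in the same order of settings, were 2207, 313, and 1738 (rejecting) and 696, 1596, and 160 (tolerized) in TAL-like cells. They were 756 and 596 in DCT-like cells with the mitochondrial limit. In CD-like cells they were 1227, 2624, 1524, and 2273 (rejecting) and 931, 2266, and 1315 (tolerized).

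Leaving out each kidney in turn, members called in rejecting and tolerized against naive kidneys ranged from 9 to 19 and 7 to 17 in PT-like, 1 to 9 and 1 to 10 in TAL-like, 6 to 14 and 8 to 15 in DCT-like, and 1 to 9 and 2 to 12 in CD-like cells, and all genes called in PT-like cells from 2966 to 5319 and 1574 to 4299. Each of these fits left 1 kidney in a group. Where the fewest members were called in TAL-like, DCT-like, and CD-like cells, fewer of all genes were called too than with all 6 kidneys. Between tolerized and rejecting kidneys members called stayed at 0 in these 4 classes, and all genes in PT-like cells ranged from 0 to 129 (129 without rejecting kidney 2 and 22 without tolerized kidney 1).

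Deviations of same-numbered kidneys from their group means correlated at -0.157 to 0.0818. With 2 kidneys per group, this cannot show whether same-numbered kidneys shared an experiment. With a replicate block, 17, 15, and 0 members and 4983, 3702, and 0 genes were called in PT-like cells. Members called were 10, 10, and 0 in TAL-like, 13, 13, and 0 in DCT-like, and 7, 8, and 0 in CD-like cells. All genes called were 1625, 1140, and 93 in TAL-like, 2133, 1671, and 72 in DCT-like, and 1864, 1554, and 2 in CD-like cells. The rise of Abcc4 in rejecting kidneys then had an FDR of 0.065. Leaving out injured PT-like clusters could not be run, because 0 clusters had 3 such markers. Depth limits the S3-like values, with 13 to 87 cells per kidney.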
